A study of Mus musculus with 84 samples.

Results

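The genes described here encode the subunits of the NMDA receptor: Grin1, Grin2a, Grin2b, Grin2c, Grin2d and Grin3a, 6 of the 55401 gene IDs in the count files. They were chosen by name, each symbol matched to 1 Ensembl gene ID. All 6 passed the filter on low counts, as did 17941 genes in all. A seventh subunit gene, Grin3b, was outside the list and did not pass it: it had 0 to 10 counts in a mouse.

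The RNA came from nuclei sorted for NeuN, a protein of neuronal nuclei, out of the frontal cortex of 129S6/SvEvTac mice aged 12 weeks. The groups were vehicle and 24 h, 48 h or 7 days after DOI (2,5-dimethoxy-4-iodoamphetamine), a psychedelic that acts as an agonist at the serotonin 2A receptor. Each group held 4 mice with 2 libraries each, which were added up, so n is 4 mice. No transgene or mutant allele is given in the labels, and the drug groups share the vehicle mice as their only controls.

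Conventional NMDA receptors, of GluN1 and GluN2 subunits, are glutamate-gated channels that pass calcium. They conduct well only when glutamate, a coagonist (glycine or D-serine) and depolarisation coincide. Each receptor needs GluN1, the product of Grin1, which binds the coagonist. The GluN2 subunits (Grin2a to Grin2d) bind glutamate and set the channel's kinetics and its signalling partners, and GluN3A (Grin3a) lowers calcium flow. In the developing forebrain GluN2B comes first and GluN2A joins it as synapses mature, so the balance of Grin2a and Grin2b is a much used measure of receptor makeup in cortex.

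Grin2b and Grin2a were higher at 24 h and 48 h after DOI than in vehicle mice, while Grin1, Grin2d and Grin3a did not pass the test at any time. Grin2b was fitted at 3.05-fold the vehicle level at 24 h and 3.10-fold at 48 h, and Grin2a at 1.81-fold and 1.67-fold. At 7 days neither passed, and the 4 mice of that group split: mice 2 and 4 had Grin2a and Grin2b near the 24 h and 48 h levels, and mice 1 and 3 near the vehicle levels. The labels and the file headers put all 4 in the 7 days group, although the header of mouse 2 carries mouse number 6. Whether the libraries were made in batches is not given in the sources used here, and a mix-up of samples was not tested, so every mean, fold change and test at 7 days is over both pairs of mice. Grin2c passed the test at 24 h through a single mouse.

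Some features of the samples bear on every comparison below. The vehicle mice had from 9151680 to 11517452 counts. The 24 h mice had from 6441396 to 8090559 and those at 48 h from 5834248 to 7344355, so neither overlapped the vehicle mice, while 7 days mice ranged from 6972577 to 12354785. On the first principal component of log2 CPM over all tested genes (46.0% of the variance), vehicle mice and 7 days mice 1 and 3 scored -94.6 to -69.0, and the other 10 mice 22.0 to 66.2. CT010467.1, an 18S ribosomal RNA-like feature, took 0.00607% to 0.0101% of the counts in those 6 mice and 0.328% to 1.66% in the other 10. Whether depth or ribosomal RNA content has a part in the differences between vehicle and the 24 h or 48 h mice cannot be told apart from the drug, since these features follow the same groups. Markers of neurons and of other brain cells were both present. Snap25, of nerve terminals, was at 2040 to 4330 CPM, and 6 markers of glutamatergic neurons came to 301 to 481 CPM summed. Markers of astrocytes (6 genes) came to 440 to 1099 CPM summed, with Slc1a2 alone at 307 to 922 CPM, those of oligodendrocytes (5 genes) to 149 to 351 CPM and those of microglia (4 genes) to 37.6 to 111 CPM. The 3 endothelial markers summed to at most 5.03 CPM, and Cldn5 was at 0 in 10 mice, Flt1 in 4 and Pecam1 in 1.

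The cell type markers are given over whole lists. Of 45 markers, 39 were tested, and 4 were higher and 6 lower than in vehicle mice at 24 h, and 5 higher and 3 lower at 48 h (edgeR, adjusted p below 0.05). That is 25.6% and 20.5% of those tested, where 24.2% and 30.1% of all tested genes passed. At 24 h the higher ones were Rbfox3, the gene of NeuN itself (log2 fold change 0.81), Slc32a1 (1.10), the vesicular GABA transporter, Cspg4 (1.97) and Tbr1 (0.83). The lower ones were Gad1 (-0.84) and Gad2 (-0.63), which make GABA, Snap25 (-0.58), Mbp (-0.83), of myelin, and the striatal markers Drd1 (-0.90) and Ppp1r1b (-1.04). Rbfox3, Slc32a1, Cspg4, Tbr1, Gad1 and Snap25 passed at 48 h in the same directions, joined by Rgs9 (1.77), a striatal marker that was higher, and Olig1 (-1.26), an oligodendrocyte marker that was lower. The 8 striatal markers summed to 348 to 385 CPM in vehicle mice, 249 to 319 CPM at 24 h and 309 to 656 CPM at 48 h. The summed glutamatergic markers were 372 to 404 CPM at 24 h and 331 to 404 CPM at 48 h, under all vehicle mice (410 to 481 CPM). Within that sum mean Slc17a7 was 142 CPM in vehicle mice, 81.5 CPM at 24 h and 82.7 CPM at 48 h and mean Camk4 130.2, 104 and 94.4 CPM, neither passing the test. Nrgn had higher means after DOI (20.4, 26.3 and 28.6 CPM), and Tbr1, also a member, was the one glutamatergic marker called, and was higher. The astrocyte sum at 24 h (704 to 1099 CPM) was above all of them (622 to 690 CPM). No astrocyte marker passed the test: mean Slc1a2, the largest part of the sum, was 501 CPM in vehicle mice and 704 CPM at 24 h and mean Aqp4 6.36 and 12.8 CPM, while the means of Gja1 (41.9 and 28.5 CPM), Slc1a3 (78.0 and 64.8), Aldh1l1 (16.6 and 12.7) and Gfap (0.540 and 0.288) were lower at 24 h. The part of these shifts in the subunit levels was not tested.

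Levels can be compared between subunits only per exon length, as CPM (counts scaled to a common library total) divided by the kilobases of annotated exon (CPM per kb). The full exon length was used, although reads on bases shared with another gene were dropped. Such bases are 13.5% of the exon length of Grin1, 1.12% of Grin2b and 0% of Grin2a, which lowers Grin1 relative to the others. On that scale the vehicle mice had the order Grin1, Grin2a, Grin2b, Grin3a, Grin2d, Grin2c in each of the 4 animals. Grin1 was at 27.2 ± 1.55 CPM per kb (SD, n = 4), Grin2a at 18.2 ± 1.81, Grin2b at 13.0 ± 1.92 and Grin3a at 6.84 ± 0.926. The ranges of these neighbours did not overlap over the vehicle mice. Grin2d (0.269 to 0.561 CPM per kb) and Grin2c (0.187 to 0.429) lay far below and overlapped each other. At 24 h the leading genes overlapped, with Grin2b at 39.5 ± 3.50, Grin1 at 34.0 ± 4.29 and Grin2a at 32.9 ± 7.82 CPM per kb (SD, n = 4). At 48 h Grin2b led in all 4 mice over the full exon lengths, at 40.2 ± 1.65 CPM per kb. It was above the highest value of Grin2a (36.8) and of Grin1 (35.9), which overlapped each other. Its lead over Grin1 was not recomputed without the shared bases and may not hold in every mouse. The 7 days group held both orders: Grin1 led in mice 1 and 3, and Grin2b led in mice 2 and 4. The libraries of a mouse were close for the higher genes: the median absolute log2 difference between them was 0.020 for Grin1, 0.050 for Grin2b, 0.090 for Grin2a and 0.11 for Grin3a, and 0.30 and 0.77 for the low genes Grin2d and Grin2c.

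**Figure D1:**
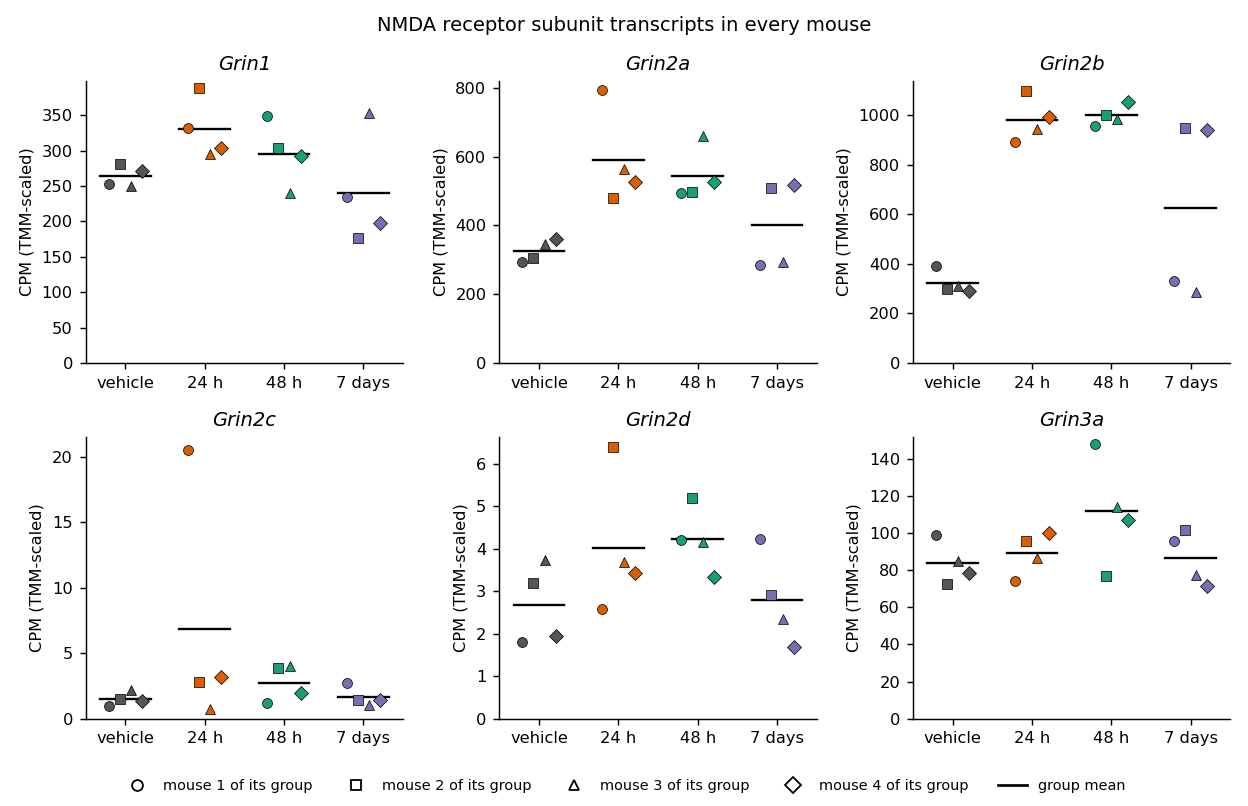
Level of each subunit gene in every mouse, as CPM scaled by TMM factors (vertical axis, from 0), by group (horizontal axis). Each point is a mouse and each line a group mean of 4. Grin2b is at 290 to 393 in vehicle mice and at 893 to 1097 at 24 h, and the 7 days mice fall into a low pair (1 and 3) and a high pair (2 and 4) for Grin2a and Grin2b. For Grin1 mice 2 and 4 are the lower ones, at 177 and 198.

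Grin1 lies on chromosome 2 from 25291181 to 25319187 (GRCm38, minus strand), with 9.70 kb of annotated exon. It was at 252, 282, 251 and 271 CPM in vehicle mice 1 to 4, at 332, 388, 296 and 303 CPM at 24 h, at 348, 303, 240 and 292 CPM at 48 h, and at 234, 177, 353 and 198 CPM at 7 days. The 24 h mice were all above the vehicle mice, while the 48 h and 7 days mice overlapped them. The difference at 24 h did not pass the test (log2 fold change 0.32, SE 0.20, 95% interval -0.09 to 0.73, edgeR adjusted p = 0.239), and the gene passed it in 1 alternative, limma voom with quality weights (adjusted p = 0.0433). At 48 h the log2 fold change was 0.16 (95% interval -0.25 to 0.58) and at 7 days -0.13 (-0.55 to 0.28). At 7 days the mice with the most Grin2b (2 and 4) had the least Grin1. An antisense gene, Grin1os, shares 1307 exon bases with Grin1, which is 13.5% of its exon length. Its level was 0.0944 to 1.59 CPM in the vehicle group, 2.54 to 5.48 CPM at 24 h and 4.15 to 6.23 CPM at 48 h. Reads on the shared bases were dropped. As reads were counted without strand and nuclear RNA holds introns, reads of unspliced Grin1 RNA on any exon of Grin1os cannot be told apart from its own.

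Grin2a lies on chromosome 16 from 9567898 to 9995560 (minus strand), with 17.9 kb of exon and no other annotated gene in its span. Its product, GluN2A, is the main GluN2 subunit of mature cortical synapses. Vehicle mice 1 to 4 had 293, 305, 345 and 361 CPM, the 24 h mice 794, 478, 563 and 526 CPM, and the 48 h mice 493, 497, 661 and 526 CPM. Every mouse at 24 h and 48 h was above every vehicle mouse. The log2 fold change was 0.86 at 24 h (SE 0.22, edgeR adjusted p = 0.0113) and 0.74 at 48 h (SE 0.22, adjusted p = 0.0183). The call at 48 h was lost without vehicle mouse 1 (adjusted p = 0.0552), vehicle mouse 2 (0.0530) or 48 h mouse 3 (0.0618), with the fold change between 0.63 and 0.80 over all mice left out in turn. Those 3 refits called 3514, 3586 and 3876 of all genes at 48 h, where the fit on all mice called 5395. Both calls were lost with the log2 share of counts on the 18S-like feature as a covariate (log2 fold change 0.25 and 0.07, edgeR adjusted p = 0.971 and 0.999). The 7 days mice had 285, 510, 294 and 517 CPM: mice 1 and 3 were at or near the lowest vehicle values, and mice 2 and 4 were within the range at 24 h and 48 h. Their mean did not pass the test against vehicle (log2 fold change 0.30, 95% interval -0.16 to 0.76, adjusted p = 0.508).

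Grin2b lies on chromosome 6 from 135713233 to 136173511 (minus strand), with 24.8 kb of exon, the longest of the 6. Its product, GluN2B, carries the long intracellular tail that binds CaMKII. Vehicle mice 1 to 4 had 393, 297, 310 and 290 CPM. At 24 h the mice had 893, 1097, 944 and 994 CPM, and at 48 h 956, 1002, 985 and 1053 CPM. The lowest of these 8 mice was more than 2-fold above the highest vehicle mouse. The log2 fold change was 1.61 at 24 h (SE 0.30, 95% interval 0.97 to 2.24, edgeR adjusted p = 0.00308) and 1.63 at 48 h (SE 0.30, 95% interval 0.99 to 2.27, adjusted p = 0.00209). Over the alternatives that leave out 1 mouse, both calls held. Both were lost with the log2 share of counts on the 18S-like feature as a covariate (log2 fold change 0.03 and -0.02, edgeR adjusted p = 0.993 and 0.999). At 7 days the mice had 330, 949, 286 and 939 CPM, so mice 1 and 3 were within the vehicle range or just under it, and mice 2 and 4 were within the range at 24 h. The 7 days mean was 626 ± 368 CPM (SD, n = 4), and the comparison with vehicle did not pass the test (log2 fold change 0.96, 95% interval 0.33 to 1.58, adjusted p = 0.130). It passed without 7 days mouse 1 (log2 fold change 1.18, adjusted p = 0.0190), without mouse 3 (1.21, 0.0161), with DESeq2 (0.98, 0.0415) and with no filter on low counts (0.93, 0.0122). Over all genes, 1342 were called at 7 days without mouse 1, 1160 without mouse 3, 958 with no filter and 796 with DESeq2. On all mice with the filter, edgeR called 0 of 17941, and 3012 had an unadjusted p below 0.05.

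Antisense genes lie in the span of Grin2b too. Of the 4, Gm14329 shares 143 of the Grin2b exon bases, Gm22892 86, Gm26653 49 and Gm14330 none. Gm14329 had 1.37 to 5.21 CPM in the vehicle group, 4.32 to 21.3 CPM at 24 h and 5.32 to 19.4 CPM at 48 h. Gm14330 was at 1.42 to 3.24, 4.31 to 12.2 and 4.12 to 19.4 CPM in the same groups. Mean Gm26653 was 1.62 CPM in vehicle mice and 1.51 CPM at 24 h, and Gm22892 was at 0.393 CPM or less in every mouse. All exon bases that Grin2b shares with other genes come to 1.12% of its exon length, and the reads dropped there were not counted. These antisense genes lie within the span of Grin2b, so their levels cannot be told apart from unspliced Grin2b RNA. They, like Grin1os, were picked out after their values were seen.

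**Figure D2:**
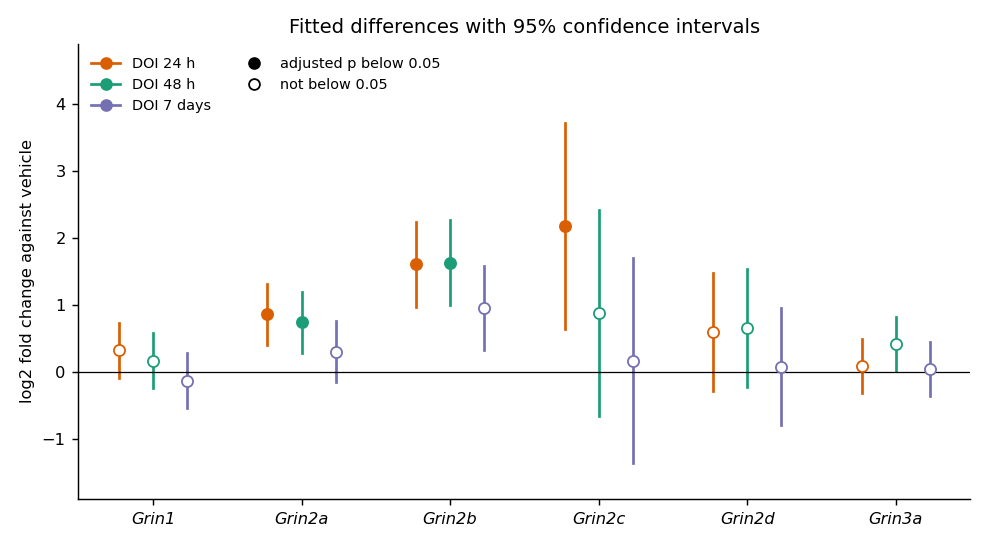
Fitted log2 fold change of each subunit gene (horizontal axis) against vehicle at the 3 times, with 95% confidence intervals (vertical axis). Filled points passed the edgeR test at an adjusted p below 0.05: Grin2a and Grin2b at 24 h and 48 h, and Grin2c at 24 h. The intervals of Grin2c span from 0.64 to 3.72 at 24 h and from -0.66 to 2.42 at 48 h.

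Grin2c (chromosome 11, 115249169 to 115267243, minus strand) encodes GluN2C, best known from cerebellar granule cells. It was at the lower end of what the depth can resolve: 3 counts in a mouse correspond to 0.254 to 0.502 CPM. Vehicle mice had 0.944, 1.48, 2.16 and 1.36 CPM and the 24 h mice 20.6, 2.83, 0.761 and 3.20 CPM. Only mouse 1 of the 24 h group stood far above the others, with 56 counts in the first library and 79 in the second. The call at 24 h (log2 fold change 2.18, SE 0.74, edgeR adjusted p = 0.0385) was lost without that mouse (0.60, adjusted p = 0.509). It was also lost without any 1 of the 4 vehicle mice (adjusted p = 0.0559 to 0.103), with library 1 alone (0.0620), with thinned counts (0.0537), with a covariate for genes detected (0.0646) or for the 18S-like share (0.961) and with voom (log2 fold change 0.46, adjusted p = 0.499). Without a vehicle mouse, 2576 to 3205 of all genes were called at 24 h, where the fit on all mice called 4346. Mouse 1 of the 24 h group also had the highest sum of the 6 astrocyte markers at that time, 1099 CPM against 704 to 763 CPM in the other 3, and its Slc1a2, the astrocytic glutamate transporter, was at 911 CPM against 599 to 661 CPM. At 48 h Grin2c was at 1.16, 3.85, 4.00 and 1.99 CPM in mice 1 to 4, and the astrocyte sum at 899.8, 604, 1049 and 730.2 CPM. Mouse 3 was highest in both there, its sum led by Slc1a2 (922 CPM). Mouse 2, with the lowest sum, had nearly as much Grin2c. Mouse 1 had the least Grin2c and the highest Aqp4 (24.2 CPM), Gja1 (63.0), Slc1a3 (99.2) and Gfap (4.35) of the group. The part of astrocyte RNA in Grin2c was not tested. At 7 days Grin2c was at 2.71, 1.46, 1.05 and 1.40 CPM, overlapping vehicle.

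Grin2d (chromosome 7, 45831883 to 45878378, minus strand) encodes GluN2D, a subunit of interneurons and of the developing brain. Vehicle mice had 1.79 to 3.73 CPM of it. The values were 2.59 to 6.40 CPM at 24 h, 3.32 to 5.19 CPM at 48 h, and between 1.68 and 4.23 CPM in the 7 days mice. The groups overlapped, and no comparison passed the test: the log2 fold change was 0.59 at 24 h (95% interval -0.29 to 1.47) and 0.66 at 48 h (-0.22 to 1.54). With 12 to 50 counts in a mouse, these intervals include both no difference and a rise above the fitted rise of Grin2a.

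Grin3a (chromosome 4, 49661611 to 49845744, minus strand) encodes GluN3A, whose receptors pass less calcium. It was at 99.2, 72.9, 85.2 and 78.4 CPM in vehicle mice and at 74.0, 95.7, 86.8 and 100.2 CPM at 24 h. At 48 h the mice had 148, 77.2, 114 and 107 CPM, so 3 of 4 lay above all vehicle mice. Neither difference passed the test (24 h: log2 fold change 0.09, 95% interval -0.32 to 0.50, edgeR adjusted p = 0.767; 48 h: 0.41, 95% interval 0.00 to 0.82, adjusted p = 0.113). Without 48 h mouse 2, the adjusted p at 48 h was 0.0471. The 7 days mice had 95.6, 102, 77.4 and 71.6 CPM, which overlapped vehicle, and mice 2 and 4 did not form a pair here.

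The members' counts are set against those over all genes. At 24 h, 3 of 6 subunit genes passed the edgeR test, all 3 higher, where 24.2% of all tested genes passed in either direction, 13.8% higher and 10.4% lower. At 48 h it was 2 of 6, both higher, where 30.1% of all genes passed, 16.8% higher and 13.3% lower. The 4 treated and 4 vehicle mice did not overlap for 3 members at 24 h (Grin1, Grin2a and Grin2b) and for 2 at 48 h, against 35.7% and 38.1% of all genes. At 7 days 0 members and 0% of genes passed, no member was free of overlap with vehicle (5.85% of all genes were), and 1 of the 6, Grin2b, had an unadjusted p below 0.05, as 16.8% of all genes did. The median log2 fold change of the 6 was 0.72, 0.70 and 0.12 at 24 h, 48 h and 7 days, beside 0.03, 0.02 and 0.02 over all tested genes. Of all tested genes, 8.71% had a larger fold change than Grin2b at 24 h and 20.0% a larger one than Grin2a.

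When the 4 groups were tested jointly, the calls were Grin2b (edgeR adjusted p = 0.00619) and Grin2a (0.0284), with 18.8% of all genes called. Grin2c came to 0.0753, and Grin1, Grin3a and Grin2d to 0.292, 0.309 and 0.466. Grin2a was lost here without any 1 of the 4 vehicle mice (adjusted p = 0.0600 to 0.0854), Grin2c was gained without 24 h mouse 3 (0.0264) and Grin1 without 7 days mouse 3 (0.0355). Without a vehicle mouse, 1475 to 1841 of all genes were called in this test, where the fit on all mice called 3380. Grin2c was also gained with DESeq2 (0.0225) and with no filter on low counts (0.00996), and Grin1 with voom (0.0427), while no member passed with the 18S-like share as a covariate. Between the times after DOI, 0 members passed: 0% of all genes passed between 48 h and 24 h, 0.00557% between 7 days and 24 h, and 0% between 7 days and 48 h. Unadjusted p fell below 0.05 for 0 members in the first of these, for 4 in the second and for 1 in the third, where 1.88%, 14.2% and 16.5% of all genes did. Grin2b was 0.02 apart on the log2 scale between 48 h and 24 h (95% interval -0.60 to 0.65). It fell by 0.65 from 24 h to 7 days (95% interval -1.27 to -0.03, adjusted p = 0.333) and by 0.67 from 48 h to 7 days (-1.30 to -0.05, adjusted p = 0.272) in fitted value, without passing the test. Grin2a fell by 0.56 from 24 h to 7 days in fitted value (-1.01 to -0.10, adjusted p = 0.267).

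The ratio of Grin2a to Grin2b, both per kb of exon, is given as a description with no test. It was 1.03, 1.42, 1.54 and 1.72 in vehicle mice 1 to 4, 1.23, 0.604, 0.826 and 0.733 at 24 h, and 0.715, 0.688, 0.930 and 0.692 at 48 h. All vehicle mice had more Grin2a than Grin2b on this scale, and 7 of the 8 mice at 24 h and 48 h had more Grin2b. The exception, 24 h mouse 1, had the highest Grin2a of all 16 mice (44.3 CPM per kb) and the lowest Grin2b of the 24 h and 48 h mice (35.9). Vehicle and 48 h mice did not overlap in the ratio, while vehicle and 24 h mice overlapped through mouse 1 of each group. The 7 days mice had ratios of 1.20, 0.744, 1.42 and 0.763, so mice 2 and 4 again fell with the earlier drug groups. Of the 4 Grin2 transcripts summed per kb, Grin2b held 36.1% to 48.5% in vehicle mice, 42.4% to 61.0% in 24 h mice, 50.9% to 58.4% in 48 h mice and 40.4% to 56.7% in 7 days mice, and Grin2c with Grin2d made up 0.789% to 5.28% over the 16 mice. Grin2b relative to Grin1 was 0.412 to 0.608 in vehicle mice, 1.05 to 1.28 at 24 h and 1.07 to 1.60 at 48 h, so vehicle mice did not overlap those at 24 h or 48 h. As the full exon length of Grin1 was used, these ratios are overstated, and a value near 1 does not tell which gene was higher. At 7 days Grin2b relative to Grin1 was 0.550, 2.10, 0.316 and 1.86 in mice 1 to 4, which include both the lowest value and the highest values of the 16 mice.

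**Figure D3:**
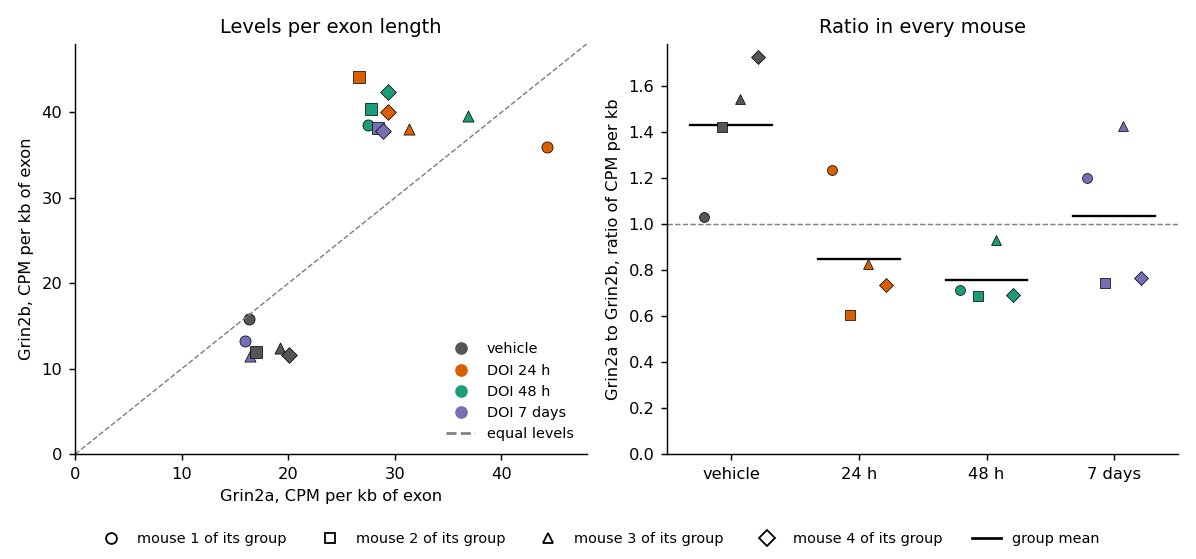
Left: Grin2b (vertical axis) against Grin2a (horizontal axis) in CPM per kb of exon, a point per mouse, with the dashed line at equal levels. Right: the ratio of Grin2a to Grin2b in every mouse by group, with group means as lines. All 4 vehicle mice lie above a ratio of 1 and all 4 mice at 48 h lie below it.

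Grin2a and Grin2b are long genes, so the values of long genes as a class are given beside theirs. The 542 tested genes that span 300 kb or more, to which Grin2a and Grin2b belong, had a median log2 fold change of 0.18 at 24 h (quartiles -0.27 and 0.68) and 0.28 at 48 h. The 871 genes with 12 kb of exon or more, which also hold Grin3a, had medians of 0.26 and 0.36. Grin2a and Grin2b were above the upper quartile of both classes at 24 h, and Grin3a was under the median.

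The split at 7 days and the 18S-like feature moved together with both genes. Mice 2 and 4 of that group had CT010467.1 at 0.633% and 0.474% of counts, and mice 1 and 3 at 0.00834% and 0.00607%. With the log2 of this share as a covariate no member passed in any comparison with vehicle. The values of Grin2a and Grin2b under it, given above, come from a fit that called 0 of 17941 genes at either time and had 870 and 685 genes at an unadjusted p below 0.05. The share separates all vehicle mice from all 24 h and 48 h mice, and the 7 days group alone holds mice at both levels. The 7 days mice differed in other markers too. The summed level of 8 striatal projection neuron genes was 665, 1807, 418 and 1361 CPM in mice 1 to 4 and 348 to 385 CPM in the vehicle group, so mice 2 and 4 were highest there as well. Markers of cortical glutamatergic neurons (6 genes, summed) came to 456, 301, 353 and 317 CPM, and to 410 to 481 CPM in the vehicle group. Of these genes Slc17a7 was at 166, 52.4, 142 and 60.0 CPM, while Tbr1, at 45.3, 57.7, 27.3 and 73.9 CPM, was higher in mice 2 and 4. The part of either in the subunit levels was not tested. In bulk nuclei, a larger share of cells that carry a transcript and more transcript per cell cannot be told apart.

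**Figure D4:**
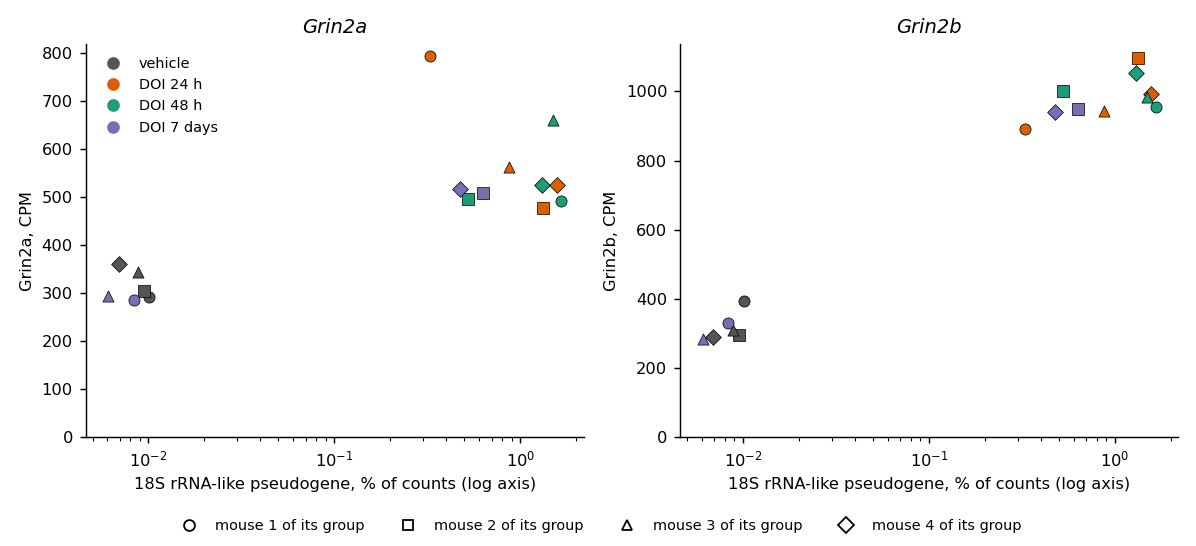
Grin2a (left) and Grin2b (right) in CPM (vertical axes, from 0) against the share of counts on the 18S-like feature CT010467.1 (horizontal axes, percent, log scale), a point per mouse. The 4 vehicle mice and 7 days mice 1 and 3 sit together at shares up to 0.0101%, and the other 10 mice at 0.328% or more, with no mouse between.

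The genes whose pattern over the 16 mice was most like a member's were ranked by Pearson correlation of log2 CPM, over genes whose mean log2 CPM reached 2. For Grin2b they were 4833421G17Rik (r = 0.994), Chrnb2 (0.993), a nicotinic receptor subunit gene, and Dagla (0.990), which makes the endocannabinoid 2-AG. For Grin2a they were Igip (0.965), 6720427I07Rik (0.956) and R3hdm1 (0.953). For Grin1 the closest were Preb (0.894), Lrfn4 (0.821) and Pradc1 (0.804), and for Grin3a Bcas3 (0.847), Card10 (0.826) and Dirc2 (0.812). For the low genes they were 2900076A07Rik (0.874), Naaladl2 (0.844) and 1500026H17Rik (0.835) for Grin2c, and Nlgn2 (0.784), Fam124a (0.767) and Yap1 (0.722) for Grin2d. These are descriptions of 16 points from the same libraries that fall into the same separate sets of 6 and 10 mice, and r within each set was not computed.

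Genes that supply, hold, modify or act after the receptor were followed in 6 lists of 67 genes, of which 66 were tested (Dao, D-amino acid oxidase, was not). At 24 h 18 were higher and 8 lower, and at 48 h 21 were higher and 8 lower, by edgeR at an adjusted p below 0.05. That is 39.4% and 43.9% of the tested partner genes, beside the 24.2% and 30.1% of all genes given above. Their median log2 fold change was 0.20 at 24 h and 0.29 at 48 h. At 7 days none passed in either direction. With each mouse left out in turn, 12 to 19 were higher and 6 to 9 lower at 24 h, and 14 to 22 higher and 6 to 10 lower at 48 h. These refits called 2550 to 4944 of all genes at 24 h and 3514 to 5919 at 48 h. The fit on all mice called 4346 and 5395, so losses of partner calls below go with fewer calls over all genes in many refits. With the log2 share of the 18S-like feature as a covariate, 0 partner genes were higher and 0 lower at either time, so each call on a partner gene below was lost in that fit. Of the named fold changes, 11 changed sign there and 26 kept it, most of them at a smaller value. Camk2a came to -0.081 and -0.19 (edgeR adjusted p = 0.986 and 0.996). Calm2 (-0.86 and -0.995 at 24 h and 48 h) and Srr (-0.65 at 24 h) were further from 0 than in the main fit.

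Of the genes that supply transmitter and coagonist, 2 of 9 were higher and 1 lower at 24 h, and 2 higher and 0 lower at 48 h. Over all tested genes 24.2% passed at 24 h and 30.1% at 48 h, in either direction. Slc6a9, the glycine transporter GlyT1, was at 9.38 ± 1.06 CPM at 24 h (SD, n = 4) and at 3.24 ± 0.309 CPM in vehicle mice (log2 fold change 1.53, edgeR adjusted p = 0.00446; 0.98 at 48 h). Srr, serine racemase, which makes D-serine, fell by 0.59 on the log2 scale at 24 h (adjusted p = 0.0228). The count of higher genes at 24 h was 1 without vehicle mouse 1 or 2 or 24 h mouse 1, and Srr was lost in the same refits (edgeR adjusted p = 0.0543 to 0.0626) and with total counts in place of TMM (0.0532). At 48 h it was 0 without vehicle mouse 1 or 2 and 1 without vehicle mouse 3 or 4 or 48 h mouse 2, 3 or 4. Slc6a9 at 48 h was lost without any 1 of the vehicle mice, or without 48 h mouse 3 or 4 (edgeR adjusted p = 0.0528 to 0.109). It was also lost with no filter on low counts (0.168), with library 1 alone (0.114) and with counts thinned to 1 total (0.0943). Its log2 fold change was 0.74 to 1.04 in these refits. Without 24 h mouse 1, 1 gene of the list was lower at 48 h.

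Of the scaffold and adhesion genes, 4 of 13 were higher and 2 lower at both times, where 24.2% and 30.1% of all genes passed. Shank2 (log2 fold change 1.29 and 1.43 at 24 h and 48 h), Nlgn1 (1.12 and 1.14), the synaptic adhesion gene neuroligin 1, and Dlg4 (0.99 and 1.15), which encodes PSD-95, rose. Shank1 fell, from 306 ± 19.5 CPM in vehicle mice to 123 ± 52.1 at 24 h and 123 ± 23.2 at 48 h (SD, n = 4). Both Shank genes encode scaffolds of the postsynaptic density and passed in opposite directions. Without vehicle mouse 1 or 24 h mouse 4, 2 genes were higher at 24 h, and Dlg4 was among those lost (edgeR adjusted p = 0.0540 to 0.0561). The count of lower genes at 48 h was 1 without vehicle mouse 1, 2 or 3 or 48 h mouse 1, 2 or 3.

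Of the kinases and phosphatases that act on the receptor, 4 of 15 were higher and 1 lower at 24 h, and 6 higher and 2 lower at 48 h. The share of all tested genes that passed was 24.2% at 24 h and 30.1% at 48 h. Camk2a, the CaMKII subunit gene whose product binds GluN2B, had 151 to 222 CPM in vehicle mice, 622 to 2126 CPM at 24 h and 1167 to 1876 CPM at 48 h. Its log2 fold change was 2.96 at both times (SE 0.56, edgeR adjusted p = 0.00308 and 0.00221), with no overlap between groups. Ptk2b, the kinase Pyk2, moved the other way, from 257 to 358 CPM in vehicle mice to 72.4 to 87.7 CPM at 24 h and 63.7 to 91.5 CPM at 48 h (log2 fold change -1.85 and -1.91). Src rose (0.79 and 0.88) and so did Ptpn5 (0.77 and 0.84), which encodes the phosphatase STEP. At 48 h Csk, which restrains Src-family kinases, rose (1.29) and Fyn, of that family, fell by 0.97 on the log2 scale. The count of higher genes at 24 h was 2 without vehicle mouse 2 or 4 or 24 h mouse 2 or 4, and Ptpn5 was lost in these refits and without vehicle mouse 1 (edgeR adjusted p = 0.0623 to 0.0791). At 48 h, 3 were higher without 48 h mouse 2. Fyn was lost, leaving 1 gene lower, without vehicle mouse 1, 2 or 4 or 48 h mouse 1 or 3 (edgeR adjusted p = 0.0528 to 0.0700), and without 7 days mouse 4, which shares in the fit, 2 genes were lower at 24 h. Src at 24 h was lost with no filter on low counts (edgeR adjusted p = 0.135) and with library 2 alone (0.0518), and Csk at 48 h with library 1 alone (0.0616).

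Of the trafficking genes, 2 of 9 were higher and 3 lower at both times, where 24.2% and 30.1% of all genes passed. Apba1, or Mint1, rose by 1.69 and 1.62 on the log2 scale and Snx27, a recycling sorting nexin, by 0.79 and 1.06. All 3 Lin7 genes, whose products join Apba1 and Cask in a transport complex, fell: Lin7a by 1.07 and 1.03, Lin7b by 0.80 and 1.11, and Lin7c by 1.10 and 1.17 on the log2 scale. Cask and the motor gene Kif17 did not pass at 24 h (log2 fold changes -0.21 and 0.09). Lin7b at 24 h was lost without vehicle mouse 1, 2 or 3 or 24 h mouse 1, 2 or 4 (edgeR adjusted p = 0.0509 to 0.0874).

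Of the genes that act after the channel, 3 of 11 were higher and 1 lower at 24 h, and 4 higher and 1 lower at 48 h. Beside this, 24.2% and 30.1% of all tested genes passed at the same times. Crtc1, a CREB coactivator gene, rose by 1.76 and 1.69 on the log2 scale and Rasgrf2 by 1.02 and 1.17. Calm2, a calmodulin gene, fell from 2325 ± 78.3 to 1452 ± 354 and 1326 ± 223 CPM (SD, n = 4). At 24 h it was lost without 24 h mouse 1 or 2 (edgeR adjusted p = 0.0590 to 0.0594), which left 0 genes lower.

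Of the regulators of subunit transcription, 3 of 9 were higher and 0 lower at both times, where 24.2% and 30.1% of all genes passed. Ezh2 (log2 fold change 1.17 and 1.20 at 24 h and 48 h), a histone methyltransferase, and Tbr1 (0.83 and 0.86), a cortical transcription factor, rose. Tbr1 is also 1 of the 6 glutamatergic markers. Rest, the repressor of neuronal genes, did not pass at 24 h (log2 fold change 1.00, adjusted p = 0.418). At 24 h 1 gene was higher without vehicle mouse 1 or 2 or 24 h mouse 1 or 4, and at 48 h 1 without vehicle mouse 1 or 48 h mouse 2 or 3. Ezh2 was lost in each of these (edgeR adjusted p = 0.0525 to 0.0799 at 24 h and 0.0502 to 0.0608 at 48 h). Tbr1 was lost in each too, and at 24 h also without vehicle mouse 3 or 4 (0.0507 to 0.158 in all), and at 48 h without vehicle mouse 2 or 4 or 48 h mouse 4 (0.0511 to 0.0687). Without 7 days mouse 3, 1 gene of the list was lower at 48 h.

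Most of the named partner genes showed the split at 7 days as well. Camk2a was at 128, 1176, 164 and 1005 CPM in mice 1 to 4, and its comparison with vehicle did not pass (log2 fold change 1.78, edgeR adjusted p = 0.122). Ptk2b was at 327, 69.9, 179 and 77.5 CPM and Shank1 at 299, 82.1, 315 and 100.0 CPM. Slc6a9, at 3.81, 4.93, 4.79 and 8.40 CPM, did not pair mice 2 and 4 in this way, nor did Srr, Src and Calm2.

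**Figure D5:**
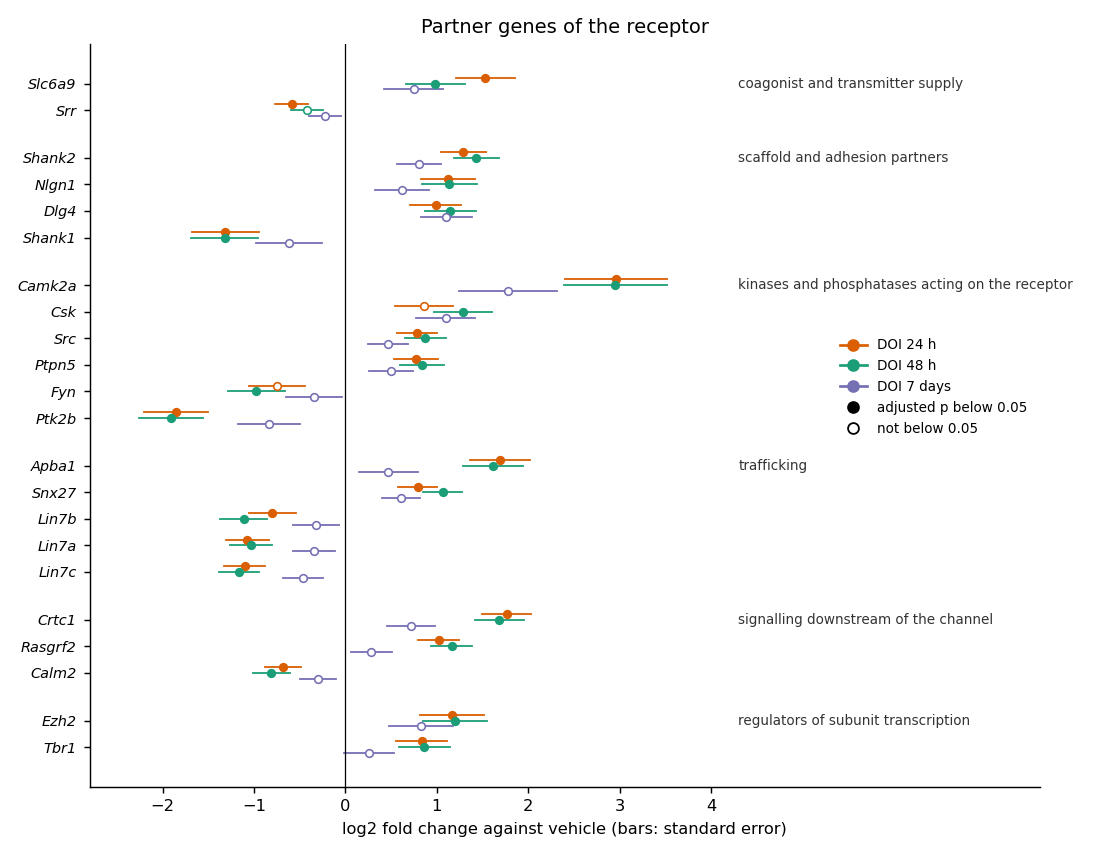
Log2 fold change against vehicle (horizontal axis, bars for the standard error) of the partner genes named in the text, grouped by list, at the 3 times. Filled points passed the edgeR test at an adjusted p below 0.05. Camk2a at 2.96 is the highest and Ptk2b at -1.91 the lowest, and no point at 7 days is filled.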

How the data were processed

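RNA-seq of NeuN-sorted frontal cortex nuclei was used from 16 mice (32 libraries). H3K27ac samples of the series were not analysed here. According to the labels, SMART-seq2 gave the cDNA and Nextera XT the libraries. The authors deposited unnormalized counts of each gene from featureCounts 2.0.0 over Ensembl exons (GRCm38), per the file headers, with strand, multi-mapping and overlap options at their defaults. The RNA aligner is not given in the sources used here. Of the gene IDs, 55141 (99.5%) matched a symbol. In 3 mice (24 h mouse 1, 48 h mouse 2, 7 days mouse 2) the header carries mouse number 6, while the group matched in all 32 libraries. The labels' numbers were used.

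The libraries of a mouse were summed. Their chi-square per degree of freedom was 1.40 to 2.85, so they were not duplicates. Genes passing filterByExpr (17941) were scaled by TMM and fitted with edgeR 4.0.16 (glmQLFit, glmQLFTest) over all 16 mice, p-values being adjusted by Benjamini-Hochberg and called under 0.05. Standard errors were computed as the fold change over the root of F, and log2 CPM used a prior count of 2. The labels name separate mice, so p-values measure the spread between them, and without molecular identifiers, floors of 3 counts cover counting error only. The fit was also tested on simulated counts.

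Alternatives were DESeq2 1.42.0, limma 3.58.1 voom with quality weights, other scalings and filters, each library alone, only the groups compared, covariates, the mouse number as a block, thinned counts and each mouse left out. The members and lists were chosen with earlier results of these data known. All members were named. In each partner list up to 4 genes a contrast were named, those past the threshold without overlap between groups and with the largest change, and for each member the 3 genes of most similar pattern. Some genes that meet this rule are not reported here.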

Additional observations from a re-analysis of the deposited data

Results flagged for a closer look

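In groups of 4, a mouse was noted where its gap to the nearest mouse took more of the group's range than Dixon's critical value at the 95% level allows. Of 28 sets of 4 values (6 genes and the Grin2a to Grin2b ratio in 4 groups), 2 met this, and chance alone gives about 1 in 20. Grin2c in 24 h mouse 1 was at 20.6 CPM, with a gap of 0.877 of the range. The Grin2a to Grin2b ratio in 48 h mouse 3 was 0.930, with a gap of 0.888 of the range; this mouse had the highest Grin2a of its group, 661 CPM.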

How the results depend on the processing

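Of 696 refits of the members' log2 fold changes, 650 kept direction and call, 17 lost the call, 6 gained it and 23 changed sign. Of 1073 refits of the named partner genes, 978 kept both, 84 lost the call (26 with the 18S share as a covariate, 48 with a mouse left out and 10 otherwise) and 11 changed sign. The calls of Grin2b at 24 h and 48 h and of Grin2a at 24 h were lost only with the 18S share as a covariate. That covariate gave 0 members at 24 h, at 48 h and in the 4-group test, and 0 partner genes higher and 0 lower at both times. It turned Grin2b at 48 h to -0.022, Grin3a at 24 h to -0.15 and at 7 days to -0.052, Grin1 at 7 days to 0.096 and Grin2a at 7 days to -0.021. It also turned Grin2b between 48 h and 24 h to -0.056, between 7 days and 24 h to 0.039 and between 7 days and 48 h to 0.095. Among partner genes it turned, at 24 h and 48 h, Camk2a (-0.081, -0.19), Shank1 (0.29, 0.29), Nlgn1 (-0.15, -0.21), Dlg4 (-0.24, -0.10) and Lin7b (0.38, 0.11), and Fyn at 48 h (0.14). The cause was not tested.

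With mice left out in turn, 2 to 3 members were called at 24 h and 1 to 3 at 48 h. At 7 days 0 to 1 were called, and 1 to 3 in the 4-group test. Partner genes called at 7 days ranged from 0 to 6 higher and 0 to 2 lower. Over all genes these refits called 2550 to 4944 at 24 h and 3514 to 5919 at 48 h. They called 0 to 1342 at 7 days and 1475 to 4481 in the 4-group test. At 7 days, 1 member was called with DESeq2 and 1 with no filter. Partner genes higher then were 4 with DESeq2 and 3 with no filter, and 1 was lower with no filter. Those fits called 796 and 958 of all genes at 7 days. Voom called 13 partner genes lower at 48 h, where the edgeR count was 8. Over all genes voom called 3726 lower there and edgeR 2384.

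Other sign changes were of values near 0 that had not passed. At 7 days, Grin2d came to -0.035 and Grin3a to -0.0075 with library 1 alone. Left-out mice gave -0.18 to 0.40 for Grin2c, -0.19 to 0.29 for Grin2d and -0.046 to 0.14 for Grin3a there. Between 48 h and 24 h, voom gave 0.048 for Grin2a and -0.0055 for Grin2b, and left-out mice gave -0.22 to 0.060 for Grin2a and -0.017 to 0.089 for Grin2b.

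Same-numbered mice did not deviate together (mean correlation -0.036, from -0.28 to 0.24), so the numbers do not pair them. With the mouse number as a block, 1 member was called in the 4-group test and 2 at 24 h, Grin2c at 7 days came to -0.028, and calls were lost for Grin2c at 24 h (adjusted p = 0.147), Slc6a9 at 48 h (0.0519), Tbr1 at 24 h (0.0618) and Lin7b at 24 h (0.051). Depth limits Grin2c, Grin2d and Grin3b most.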
